A study of Mus musculus with 22 samples.

Results

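The genes described here are 35 genes of natural killer (NK) cells and T lymphocytes, followed through bulk RNA-seq of sorted mouse lung myeloid cells. They were taken as a named list, and each was found in both deposited count tables, which share 31116 genes. The list was chosen by CPM levels in these same samples, control monocytes against later ones included, so that the levels and changes of the 35 genes are given as a description, with no p-value. NK cells are innate lymphocytes that kill stressed or infected cells by releasing perforin and granzymes from granules, guided by activating and inhibitory receptors on their surface. T cells share the granule machinery and much of the proximal signalling, and are set apart by the CD3 complex that carries the T cell receptor signal. In lung these cells circulate through the capillary bed beside monocytes, and neither Ly6Chi monocytes nor alveolar macrophages are known for the killing programme.

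All mice were C57BL/6 and are labelled SP-CI73T mutant, a line in which a mutant surfactant protein-C made by alveolar type 2 cells is raised by tamoxifen through a Flp-O recombinase knocked into Rosa26. Control mice are labelled untreated, and the study describes those of the monocyte RNA-seq as oil treated mutant mice, while its general methods pool adult mice given tamoxifen without Flp-O or oil with Flp-O, males and females together. Treated mice received tamoxifen by gavage and were sampled 3 d or 14 d later. SigF+CD11b- alveolar macrophages (control n = 4, 3 d n = 3, 14 d n = 3) and Ly6Chi monocytes (n = 4 in each group) were sorted, which gives 22 samples. The study states that the monocytes came from collagenase-digested lung tissue. The monocyte sort set aside CD3+ lymphocytes, Ly6G+ neutrophils and SigF+ cells, and the listed antibodies name no NK cell receptor. The labels do not tie the macrophage and monocyte samples to individual mice, so the p-values given for other gene lists measure the spread between these samples.

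Library totals were 15451460 to 28789639 counts in monocytes, 10692871 to 17074863 in control and 3 d macrophages, and 4610720 to 6838893 in 14 d macrophages. The 3 d monocytes stood apart, with 40119 to 41134 genes detected against 24775 to 32492 in the other monocytes. Levels are CPM, the count of a gene per 1e+06 counts of its library, scaled by the trimmed mean of M values (TMM) within a cell type, and a level of 3 counts, taken as the floor, stood at 0.12 to 0.161 CPM for the monocyte libraries and at 0.197 to 0.504 CPM for macrophage libraries. All 6 monocyte sort markers were lower, and all 7 alveolar macrophage markers higher, in control macrophages than in control monocytes. Expression of Xist fell from 51.6 to 173 CPM in control monocytes to 0.0463 to 0.242 CPM at 14 d, and Ddx3y, a Y-linked gene, was 36.6 to 43.8 CPM at 14 d against at most 0.0828 CPM in the control and 3 d monocytes. Sex and the 14 d time point therefore cannot be told apart in monocytes, and the same held in macrophages (Ddx3y 37.5 to 55.5 CPM at 14 d, at most 0.208 CPM before).

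The sequences that bear on these measurements are of 2 kinds. The first are the 4 Ly49 receptors among the 35 genes, closely related neighbours on chromosome 6 whose reads must be told apart by their sequence. The first 60 coding bases of each are shown in GENCODE M21 transcripts, with the 16 positions that are not identical in all 4 genes in capitals.
Klra4 (Ly49D): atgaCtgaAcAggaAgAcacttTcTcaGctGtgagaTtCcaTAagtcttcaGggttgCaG
Klra8 (Ly49H): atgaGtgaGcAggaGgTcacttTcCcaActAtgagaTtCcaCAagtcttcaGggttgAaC
Klra7 (Ly49G): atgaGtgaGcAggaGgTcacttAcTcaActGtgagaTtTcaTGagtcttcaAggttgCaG
Klra9 (Ly49I): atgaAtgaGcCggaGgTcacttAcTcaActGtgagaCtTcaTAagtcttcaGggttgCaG
Of the windows of 150 bases, the length of a read, that tile the transcripts of Klra4, Klra7 and Klra9, 0% were also found in another gene, and 6.03% of those of Klra8 were also found in the pseudogene Klra14-ps.

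The second are the 250 bases before the RefSeq start of genes whose levels moved together (Gzma, Gzmb and Ncr1) and of 1 gene whose level did not follow them within groups (Stat4), all in GRCm38.p6 and in the orientation of the gene. Capitals mark AGGTGT, the core letters of a T-box site, and TGTGGT, the core letters of a Runx site, each searched on both strands (ACACCT and ACCACA on the reverse).
Gzma, chr13:113100982-113101231 (-): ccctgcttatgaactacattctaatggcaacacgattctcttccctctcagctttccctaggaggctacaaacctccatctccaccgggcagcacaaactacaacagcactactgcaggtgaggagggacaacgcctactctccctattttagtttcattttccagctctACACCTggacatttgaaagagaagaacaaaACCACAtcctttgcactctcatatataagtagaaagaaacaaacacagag
Gzmb, chr14:56262335-56262584 (-): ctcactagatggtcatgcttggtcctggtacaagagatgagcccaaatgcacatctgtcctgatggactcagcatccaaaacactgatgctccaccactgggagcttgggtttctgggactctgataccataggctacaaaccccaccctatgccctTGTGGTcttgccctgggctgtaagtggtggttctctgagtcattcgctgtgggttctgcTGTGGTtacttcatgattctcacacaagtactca
Ncr1, chr7:4337465-4337714 (+): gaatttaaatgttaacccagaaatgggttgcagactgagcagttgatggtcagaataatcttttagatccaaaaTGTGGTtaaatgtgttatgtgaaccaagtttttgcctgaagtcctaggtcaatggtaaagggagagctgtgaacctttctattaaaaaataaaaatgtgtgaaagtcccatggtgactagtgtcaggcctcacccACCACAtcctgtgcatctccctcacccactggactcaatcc
Stat4, chr1:51986898-51987147 (+): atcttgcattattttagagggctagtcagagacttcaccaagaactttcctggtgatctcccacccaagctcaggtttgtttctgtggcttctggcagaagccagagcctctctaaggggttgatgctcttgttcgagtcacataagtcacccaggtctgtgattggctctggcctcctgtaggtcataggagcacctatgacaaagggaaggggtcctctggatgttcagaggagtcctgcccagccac
In the Gzma window 1 T-box and 1 Runx core were found, in those of Gzmb and Ncr1 2 Runx cores each, and in that of Stat4 none of these letters. Over the 26 of 35 genes that matched a promoter entry, AGGTGT was in 6 and TGTGGT in 10. Among 27025 windows of the same length the shares were 12% and 14.2%. The windows shown do not stand for the whole list. Klra4, Klra7, Klra8, Klra9, Fasl and Tbx21, like Gzma highest in replicate 2 at 3 d, held neither core. Cd3d and Cd3g, which were not highest there, held 1 T-box core each. A match says only that the letters stand in the window, and a link between these letters and the levels was not tested.

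NK cell transcripts were measured at substantial levels in control monocytes, and control replicates 3 and 4 held more of them than replicates 1 and 2. Summed over the 35 genes, the level was 888 CPM in control replicate 1, 1309 in replicate 2, 3445 in replicate 3 and 2861 in replicate 4. At 3 d the sums were 78.6, 679.5, 143.5 and 142.1 CPM, with replicate 2 far above the other samples. At 14 d they were 115, 129.6, 79.2 and 107.8 CPM. Every 3 d and 14 d monocyte sample therefore held less than any control sample, and replicate 2 at 3 d came closest to control. In bulk samples, fewer cells of a type and less RNA per cell cannot be told apart.

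**Figure D1:**
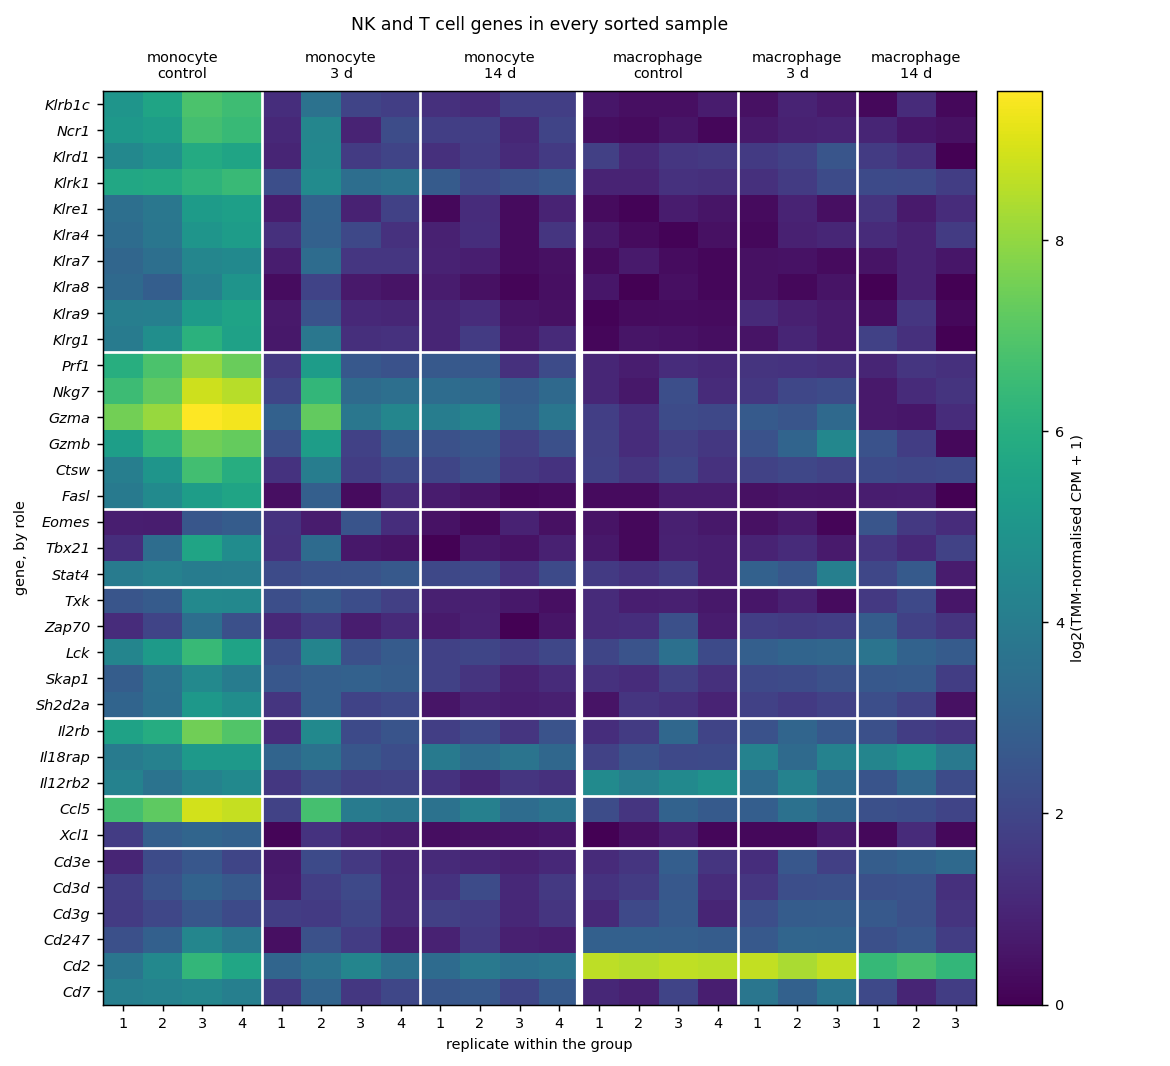
Level of each of the 35 genes in every sample, as the log2 of TMM-normalised CPM plus 1 (color), with genes in rows by role and samples in columns by group and replicate. Control monocytes 3 and 4 and 3 d monocyte replicate 2 are the bright columns of their groups, and Cd2 (80 to 410 CPM) is the one bright row in macrophages.

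Per kilobase of exon, which allows genes to be compared, the most abundant of the 35 genes in control monocytes was Gzma (468 CPM per kb), followed by Ccl5 (300.3), Nkg7 (293) and, at a distance, Gzmb (78.9), Prf1 (58.3) and Ncr1 (42.3). The lowest were Cd3g (1.03), Cd3e (0.767) and Eomes (0.727). The 4 controls differed by several fold for most of these genes, so that Gzma, Ccl5 and Nkg7, whose control samples overlap widely, are not ordered with confidence.

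Of the 10 NK receptors, 9 are encoded on chromosome 6, from Klrg1 (chr6:122270596-122282882 in GRCm38) to Klra7 (chr6:130218605-130233322), and Ncr1 lies at chr7:4337724-4345164. Klrb1c encodes the NK1.1 antigen that marks NK cells in C57BL/6 mice. Its level in control monocytes was 30.9, 47.2, 115 and 95.2 CPM in replicates 1 to 4. At 3 d it was 1.37, 11.1, 2.93 and 2.43 CPM, and at 14 d 1.53, 1.23, 2.39 and 2.42 CPM. Neither later group overlapped the controls, and the log2 fold change was -4.01 (SE 0.64) at 3 d and -5.25 (SE 0.69) at 14 d. Ncr1, the activating receptor NKp46, was 33.5, 38.7, 103 and 85 CPM in control monocytes. It was 1.13, 19.9, 0.96 and 3.65 CPM at 3 d and 2.41, 2.41, 1.06 and 2.86 CPM at 14 d. As with Klrb1c, the controls split into a lower and a higher pair, and replicate 2 alone approached them at 3 d. The log2 fold change of Ncr1 was -3.34 (SE 0.88) at 3 d and -4.89 (SE 0.95) at 14 d.

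Klrk1, the activating receptor NKG2D, varied less between controls, at 52.4, 55.3, 71.3 and 88.4 CPM. It was 3.88, 23.4, 10 and 11.6 CPM at 3 d and 5.65, 3.3, 3.99 and 5.04 CPM at 14 d. Neither group overlapped the controls, and the log2 fold changes were -2.45 (SE 0.41) and -3.89 (SE 0.43). Klrd1, or CD94, which pairs with the NKG2 chains, had controls of 20.8, 27.6, 56.5 and 47.2 CPM. At 3 d replicate 2 was 20.8 CPM, just below the lowest control, while the other 3 samples were 1.01, 2.19 and 2.9 CPM. Klrg1, an inhibitory receptor of mature NK and effector T cells, was 14.9, 25.3, 67.5 and 43.1 CPM in controls and at most 2.17 CPM at 14 d.

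The 4 Ly49 receptors, 2 activating (Klra4 and Klra8) and 2 inhibitory (Klra7 and Klra9), were all higher in control replicates 3 and 4 than in replicates 1 and 2. Klra4 was 9.4, 12.5, 30.4 and 38 CPM in controls, Klra7 7.91, 10.2, 20 and 22.1 CPM, Klra8 8.65, 6.23, 17.1 and 30.2 CPM, and Klra9 15.8, 16.3, 36.5 and 45.9 CPM. Control replicate 4 was highest for all 4 of them and for Klre1 and Klrk1, whereas replicate 3 was highest for the other NK receptors. Klra7 was the only one of the 10 receptors whose control and 3 d samples overlapped, since replicate 2 at 3 d reached 9.42 CPM and control replicate 1 was 7.91 CPM. At 14 d the 4 genes ranged from 0.106 CPM (Klra8, replicate 3) to 1.81 CPM (Klra4, replicate 4). Activating and inhibitory receptors thus moved alike in direction, with log2 fold changes at 14 d of -4.39 (Klra4), -5.41 (Klra8), -4.76 (Klra7) and -5.21 (Klra9). Across the 10 NK receptors, all 10 were called lower at 3 d (median log2 fold change -3.19) and all 10 at 14 d (median -4.91).

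Calls here are an adjusted p below 0.05 over all genes tested in edgeR's quasi-likelihood test and a fold change over 1.5. Of the 35 genes, 31 were called lower and 0 higher at 3 d, where 14.8% of the 22353 genes tested were called lower, 36.7% higher and 51.4% either way. At 14 d 32 were called lower and 0 higher, where 5.34% of genes tested were called lower, 3.22% higher and 8.56% either way. The groups did not overlap for 23 genes at 3 d and 30 at 14 d, all of them lower, against 14.8% and 7.97% of all genes lower without overlap, and 36.6% and 5.76% higher without overlap. Since the levels in these samples chose the genes, nothing is read from these counts. The 3 d and 14 d comparisons share the 4 controls. The median log2 fold change was -2.69 at 3 d and -4.42 at 14 d, beside 0.21 and 0.09 over all genes tested. Other scalings moved the 3 d changes of the listed genes up by 0.15 to 0.52 on the log2 scale, and all 35 stayed below 0.

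These counts rest on the controls and on single samples in different ways. Without 3 d replicate 2, 32 genes were called at 3 d and the median was -3.40. With only control replicates 1 and 2 kept, a choice made after seeing that replicates 3 and 4 were higher, 14 were called at 3 d (median -1.93) and 18 at 14 d (median -3.51), while the genes lost included Ncr1, Klrd1, Klrg1, Prf1, Nkg7, Gzma, Gzmb and Ccl5 at both times.

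**Figure D2:**
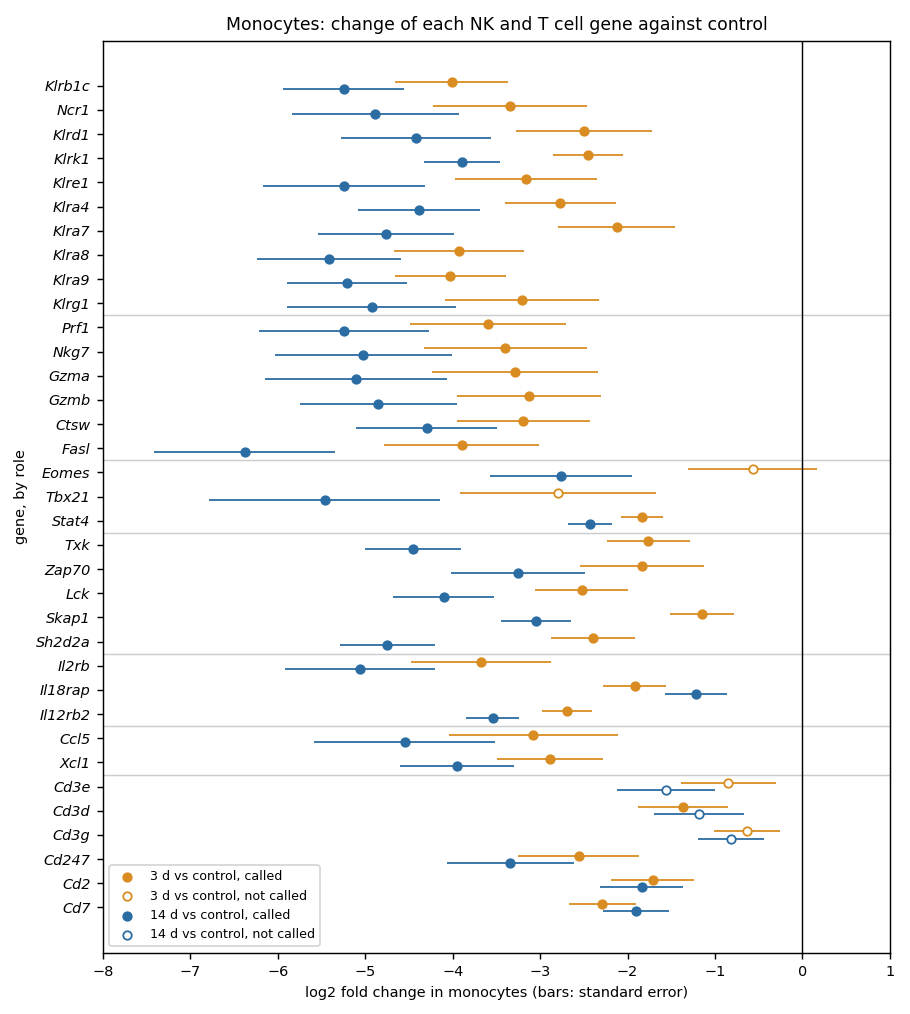
Log2 fold change of each gene in monocytes at 3 d (orange) and 14 d (blue) against control, with bars for the standard error, filled where called and open where not. NK receptors and granule genes lie at -2.12 or below at both times, and Cd3e, Cd3d and Cd3g lie closest to 0, together with Skap1 and Eomes at 3 d and Il18rap at 14 d.

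The granule genes carry out the killing, and all 6 were higher in control replicates 3 and 4 than in replicates 1 and 2 and highest in replicate 2 at 3 d. Gzma, granzyme A, encoded on chr13:113093825-113100981, was 182, 273, 754 and 673 CPM in control monocytes (470.4 ± 285, SD, n = 4). It was 6.83, 153, 12.9 and 19.7 CPM at 3 d and 15.7, 19.5, 6.86 and 12.4 CPM at 14 d. The control samples spread widely, and replicate 2 held 79.5% of the summed 3 d level. The log2 fold change was -3.29 (SE 0.95) at 3 d and -5.11 (SE 1.04) at 14 d. Prf1, the pore-forming perforin, was 62.4, 113, 262 and 164 CPM in controls. It was 2.02, 38, 5.28 and 4.26 CPM at 3 d and 5.37, 5.42, 1.49 and 3.55 CPM at 14 d, again with replicate 2 alone near the lowest control at 3 d. Nkg7, a granule membrane protein, was 93.8, 147, 461 and 370 CPM in controls, 2.95, 79.5, 8.96 and 10.2 CPM at 3 d and 5.85 to 9.49 CPM at 14 d.

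Gzmb, granzyme B, was 40 to 178 CPM in controls, 2.61 to 39.4 CPM at 3 d and 2.5 to 4.92 CPM at 14 d. Its highest 3 d sample, replicate 2, thus lay just under its lowest control. Ctsw, the lysosomal protease cathepsin W, was 16.2 to 99.9 CPM in controls and 1.61 to 3.99 CPM at 14 d. Fasl, the death ligand on the cell surface, changed most at 14 d (log2 fold change -6.38, SE 1.04), from 13.8, 22.7, 39.2 and 47.1 CPM in controls to 0.648, 0.443, 0.16 and 0.201 CPM, the last values being close to the floor. All 6 genes of this group were called lower at both times, with medians of -3.34 and -5.07. Fold changes of genes this close to the floor depend on the prior count and set no bound.

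The 2 chemokines followed the granule genes. Ccl5 (RANTES), which draws in cells that carry its receptors, Ccr1 among them, was 103, 146, 485 and 420.1 CPM in control monocytes. At 3 d it was 2.67, 107, 14.6 and 12.4 CPM, so that replicate 2 overlapped the controls, and at 14 d it was 9.3 to 17.1 CPM. Xcl1, lymphotactin, was far lower, at 2.28 to 7.75 CPM in controls and 0.278 to 0.483 CPM at 14 d. On the receptor side, Ccr1 rose by 2.21 (SE 0.27) on the log2 scale at 14 d (edgeR adjusted p = 0.00015).

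The transcription factors did not move as a unit. Tbx21 (T-bet), which drives the cytotoxic programme in NK and T cells, had the widest control range of the 35 genes, at 1.37, 9.67, 46.8 and 23.8 CPM. It was 1.58, 9.15, 0.533 and 0.421 CPM at 3 d and 0.0463 to 0.846 CPM at 14 d. Control replicate 1 lay within the range of the 3 d samples and above all 14 d samples. The 3 d change of -2.80 (SE 1.12) was not called, and that at 14 d was (-5.46, SE 1.32). Eomes, its relative, was 0.745, 0.698, 4.82 and 5.81 CPM in controls and 1.66, 0.67, 4.53 and 1.36 CPM at 3 d, with wide overlap and a log2 change of -0.57 (SE 0.74). It was the 1 gene for which 3 d replicate 2 was lowest, with 8.15% of the group's sum.

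Stat4, which carries the IL-12 signal, behaved differently again. Its controls were nearly equal, at 14.9, 17.2, 15.1 and 15.4 CPM (15.7 ± 1.04, SD, n = 4), so that the pair of higher controls seen for NK receptors was not present. The level was 3.51, 4.29, 4.48 and 5.29 CPM at 3 d and 3.2, 3.3, 1.65 and 3.42 CPM at 14 d, with no overlap with control and log2 fold changes of -1.83 (SE 0.24) and -2.43 (SE 0.25). Reads of Stat4 may be shared with Gm28177, a gene on the same strand that holds 16.9% of its 150-base windows.

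Signalling genes were lower in all 5 cases at both times, with medians of -1.84 at 3 d and -4.10 at 14 d. Lck, the kinase that starts T cell receptor signalling and is also used in NK cells, was 19.3, 36, 86.2 and 46.3 CPM in controls, 3.88, 18.8, 4.11 and 5.75 CPM at 3 d and 2.23 to 3.06 CPM at 14 d. Txk, a Tec family kinase, was 4.8, 5.69, 21.5 and 21.3 CPM in controls and 3.88, 5.45, 3.84 and 2.53 CPM at 3 d, where the groups overlapped, before it reached 0.322 to 0.788 CPM at 14 d. Skap1, an adaptor, was 6.13 to 21.9 CPM in controls, 4.97 to 6.88 CPM at 3 d and 0.851 to 2.59 CPM at 14 d. On the log2 scale, though not in CPM, Txk and Skap1 fell more from 3 d to 14 d than from control to 3 d, as Klra7 also did. Eomes likewise fell more over the later interval on the log2 scale. Sh2d2a, an adaptor that binds Lck, was 7.41 to 33.1 CPM in controls, 1.78 to 6.52 CPM at 3 d and 0.463 to 0.837 CPM at 14 d. Zap70, the kinase recruited to the CD3 and zeta chains, was 1.33, 2.85, 10.1 and 4.02 CPM in controls and at most 0.837 CPM at 14 d, where replicate 3 had 0 counts.

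The cytokine receptors separated into different patterns. Il2rb, the chain shared by the IL-2 and IL-15 receptors on which NK cells depend, was 44.2, 60.3, 177 and 123 CPM in controls. It was 1.29, 22.2, 3.41 and 4.58 CPM at 3 d and 1.81 to 4.47 CPM at 14 d, with controls 3 and 4 and 3 d replicate 2 above the rest of their groups. Il12rb2, the signalling chain of the IL-12 receptor, was 18.1, 11.4, 18.1 and 22 CPM in controls, 1.9 to 3.71 CPM at 3 d and 0.985 to 1.81 CPM at 14 d, so that the spread within groups was small against the step between them (log2 fold change -2.69, SE 0.29, and -3.54, SE 0.30). Il12rb2 overlaps Serbp1 on the opposite strand over 1519 exonic bases, and counting with strand is not given in the sources used here. Il18rap, the IL-18 receptor accessory chain, was, with Cd7 and Cd3d, 1 of 3 genes with a higher fitted level at 14 d than at 3 d, at 14.6 to 35.5 CPM in controls, 3.84 to 10.8 CPM at 3 d and 8.26 to 14.4 CPM at 14 d. Its change from 3 d to 14 d, 0.70 (SE 0.35), was not called.

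The 3 CD3 genes are neighbours on chromosome 9, from Cd3g (chr9:44969572-44980431) to Cd3e (chr9:44998740-45009627), and gave low levels. Cd3e was 0.993, 3.49, 5.06 and 2.97 CPM in controls, 0.525, 3.39, 1.97 and 1.08 CPM at 3 d and 0.851 to 1.2 CPM at 14 d. Cd3d was 2.32 to 6.99 CPM in controls, 0.606 to 3.31 CPM at 3 d and 1.17 to 3.55 CPM at 14 d. Cd3g was 2.19 to 4.82 CPM in controls, 1.22 to 3.04 CPM at 3 d and 1.12 to 2.5 CPM at 14 d. All 3 overlapped the controls at both times, and Cd3d at 3 d was the only call (log2 fold change -1.36, SE 0.52). The log2 fold changes at 14 d were -1.56 (SE 0.56) for Cd3e, -1.18 (SE 0.51) for Cd3d and -0.82 (SE 0.38) for Cd3g. Cd247, the zeta chain that serves the T cell receptor and also Ncr1, was higher and moved more, from 4.02, 6.61, 20 and 13.3 CPM to 0.323, 4.2, 2.24 and 0.702 CPM at 3 d and 0.685 to 1.97 CPM at 14 d. Of the windows of Cd247, 47.8% are shared with Pou2f1 and Gm16565, so its level is uncertain.

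Cd2 (chr3:101275899-101287939), an adhesion receptor of T and NK cells that binds CD48, was 12.2, 21.3, 79 and 48.9 CPM in controls, 7.63 to 19.5 CPM at 3 d and 9.08 to 13.5 CPM at 14 d. Control replicate 1 lay inside the range of both treated groups, although both changes were called (log2 fold change -1.71 and -1.84, SE 0.47 each). Cd7 resembled Stat4, with controls of 16.6, 18.1, 19.9 and 16.3 CPM (17.7 ± 1.63, SD, n = 4). It was 1.98, 7.46, 1.92 and 3.13 CPM at 3 d and 3.03 to 5.6 CPM at 14 d. Of the 6 genes of this group 4 were called lower at 3 d and 3 at 14 d.

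From 3 d to 14 d, 8 of the 35 genes were called lower and 0 higher, where 34.4% of genes tested were called lower, 12.3% higher and 46.7% either way. The groups lay apart for 6 of the 35 genes, all lower, against 35.8% of all genes lower and 15.8% higher. The 8 were Klrk1, Klra7, Eomes, Txk, Lck, Skap1, Sh2d2a and Il12rb2, with log2 fold changes from -0.85 (SE 0.29, Il12rb2) to -2.69 (SE 0.53, Txk). The median over the 35 genes was -1.49, beside -0.25 over all genes tested. This comparison leaned on 3 d replicate 2: without it the median was -0.24, and 8 genes were called, of which Il18rap and Cd7 had not been called with it. Without 3 d replicate 1 the number was 18.

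Whether the genes moved together was described sample by sample, within groups. Control replicate 1 had the lowest level of 31 of the 35 genes (88.6%, against 25.9% of the other genes tested), replicate 3 the highest of 24 and replicate 4 the highest of 10. Stat4 was highest in replicate 2. At 3 d, replicate 2 was highest for 29 genes (82.9%, against 19.8% of other genes) and replicate 1 lowest for 25 (71.4% against 25.4%). At 14 d the order was weaker, with replicate 2 highest for 15 genes and replicate 3 lowest for 21 (60% against 19.5%).

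The share of the summed 3 d level held by replicate 2 had a median of 57.8% over the 35 genes, from 8.15% (Eomes) to 79.5% (Gzma), beside 24.4% over all genes tested. It was over 50% for 22 of the 35 genes (62.9%), against 0.877% of all genes. The ratio of highest to lowest control had a median of 4.05, from 1.15 (Stat4) to 34.3 (Tbx21), beside 2.06 over all genes. Genes fell off this pattern in different directions. Stat4 had neither a wide control range nor a high replicate 2 (24.4%), Cd7 had narrow controls (ratio 1.22) but a high replicate 2 (51.5%), and Cd2, Skap1 and Txk had wide controls and a replicate 2 share of 23.3%, 26.1% and 34.7%. Of the CD3 genes, Cd3g (24.1%) and Cd3d (32.4%) had no such share, while that of Cd3e was 48.7%, with a control ratio of 5.09.

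**Figure D3:**
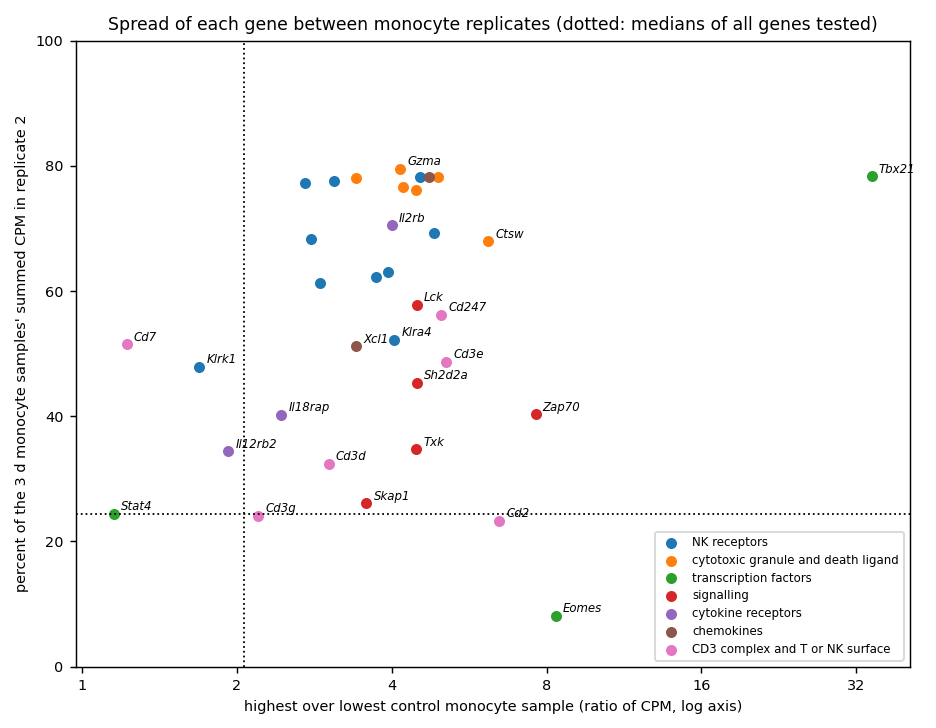
For each gene, the ratio of the highest to the lowest control monocyte CPM (x axis, log scale) and the percent of the 3 d monocyte samples' summed CPM held by replicate 2 (y axis), colored by role, with dotted lines at the medians of all genes tested (2.06 and 24.4%). Granule genes, Ccl5, Il2rb and 9 of the 10 NK receptors lie above and to the right of both lines, Klrk1 (ratio 1.69) lies to the left, and Stat4, Cd3g and Eomes lie apart.

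Subtracting from each gene the median deviation of the other genes of the list lowered its own standard deviation (SD, log2 scale, over deviations from group means) for 28 of the 35 genes (80%), and the median SD went from 1.06 to 0.556. For the other genes tested the same subtraction lowered the SD of 2.43%, and their median SD went from 0.548 to 1.02. What was subtracted came from the 35 genes, which spread more than the others, so that a rise for unrelated genes was largely built in. The 35 genes were also chosen by levels in these samples, so nothing is read from the contrast with other genes. The genes whose SD was not lowered were Eomes, Stat4, Skap1, Il18rap, Il12rb2, Cd3g and Cd7. For Stat4 it went from 0.316 to 0.852 and for Il12rb2 from 0.382 to 0.781.

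Markers of other cells were set beside this order. In control monocytes 1 to 4, the 27 further NK genes summed to 337, 398.5, 545.5 and 672 CPM, and the 29 further T cell genes to 98.1, 130.3, 216 and 202 CPM, so that both were also higher in replicates 3 and 4. At 3 d replicate 2 held 249 CPM of the further NK genes and replicate 4 held 248 CPM. The further T cell genes summed to 85.6, 112, 115 and 90.3 CPM at 3 d, with replicate 3 highest. At 14 d the further NK genes summed to 336, 209.6, 240.2 and 279.5 CPM. Their group means were 488, 216 and 266 CPM in control, at 3 d and at 14 d, against 2126, 261 and 108 CPM for the 35 genes. These sums do not stand for the typical further NK gene. The median log2 fold change of those tested was -2.88 at 14 d against control, beside 0.09 over all genes tested. From 3 d to 14 d it was -1.52, beside -0.25. The 17 B cell genes summed to 1058, 3388, 2992 and 1090 CPM in the 4 controls, which is another order. At 3 d the B cell genes summed to 661, 1095, 541 and 424.6 CPM, with replicate 2 highest, and at 14 d to 443.5 to 649 CPM. The 10 epithelial genes summed to 101, 81.8, 287 and 511 CPM in controls. Of the 7 alveolar macrophage markers, Siglecf and Marco were 3.89, 3.55, 29.2 and 19.4 CPM and 3.23, 8.17, 64 and 28 CPM, while Ccr2, a monocyte marker, was 2840, 2156, 992 and 874 CPM. The 7 markers summed to 14970, 8984, 10800 and 7334 CPM, a sum carried by Chil3 (14890, 8836, 10390 and 7015 CPM), while Itgax, Fabp4 and Pparg were higher in both replicates 3 and 4 than in replicates 1 and 2 and Car4 was highest in replicate 3. Control replicates 3 and 4 thus also held more epithelial transcript, more Siglecf, Marco, Itgax, Fabp4 and Pparg, and less Ccr2. Chil3 was not higher in both. The 6 monocyte sort markers summed to 104300, 107500, 89410 and 68900 CPM in control replicates 1 to 4, while Ly6c2 was 2567 to 3277 CPM throughout. The 8 dendritic cell genes (444.6, 414, 272.5 and 299.9 CPM) and the 10 neutrophil genes (835, 691, 596 and 436 CPM) were lower in replicates 3 and 4 than in replicates 1 and 2. The part of cells other than monocytes in these levels was not tested.

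**Figure D4:**
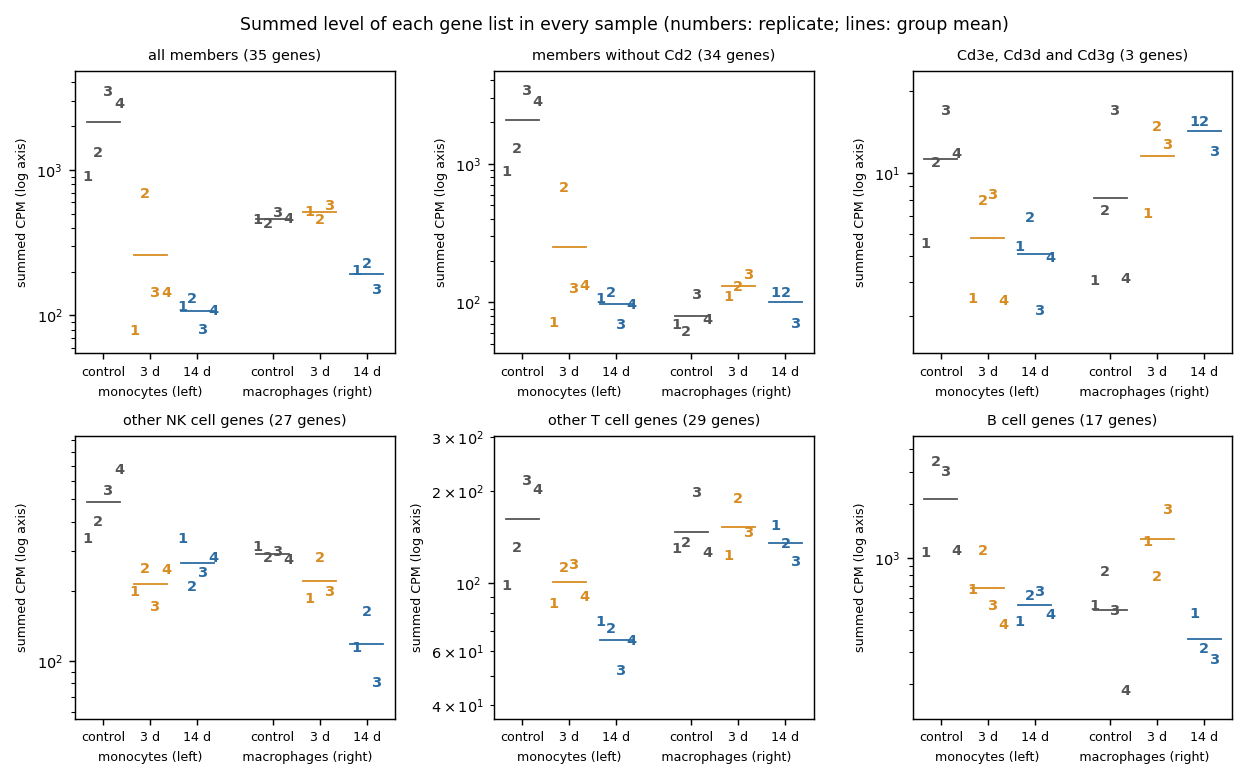
Summed CPM (log axis) of the 35 genes, of these without Cd2, of Cd3e, Cd3d and Cd3g, and of the further NK, T and B cell gene lists in every sample, with digits for replicates and lines for group means. In monocytes 3 d replicate 2 (679.5 CPM over the 35 genes) stands above its group, and the 3 CD3 genes stay at 3.14 to 16.9 CPM in all monocyte samples.

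Of the further NK genes, 20 of 27 were tested in monocytes. At 3 d 15 fell and 2 rose, and at 14 d 16 fell and 0 rose. Klra3, the Ly49C receptor, fell by 4.48 (SE 0.50; edgeR adjusted p = 0.00014) at 3 d, and Klri2, a partner of Klre1, fell by 5.38 (SE 0.57; adjusted p = 5.08e-05) at 14 d. Crtam (1.85, SE 0.53, adjusted p = 0.0103) and Gzmm (1.81, SE 0.52, adjusted p = 0.0105) rose at 3 d. Of 28 further T cell genes tested, 7 fell and 7 rose at 3 d, and 10 fell and none rose at 14 d. Over all genes, 36.7% rose and 14.8% fell at 3 d, and 3.22% rose and 5.34% fell at 14 d. Trbc1 and Trbc2, T cell receptor beta constant regions, fell by 2.27 (adjusted p = 0.00191) and 2.04 (adjusted p = 0.00401) on the log2 scale at 3 d, while Bcl11b, a T cell transcription factor, rose by 1.88 (adjusted p = 0.00617). Of 17 B cell genes, 8 fell and 1 rose at 3 d and 12 fell at 14 d, Fcmr among them by 3.16 (adjusted p = 0.000923). These 3 lists had 40 calls at 3 d, and 24 or 25 under 3 of the other scalings.

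By their median change, partners of the 35 genes that myeloid cells also make moved less. The adaptors of activating NK receptors and their downstream signalling (8 genes, among them Tyrobp and Syk) had 6 lower and none higher at 3 d. Their median log2 fold change was -0.79, where 14.8% of all genes tested were called lower. At 14 d 2 were lower, where 5.34% of all genes were, Plcg2 by 1.02 (edgeR adjusted p = 0.00166) and Lcp2 by 0.90 (adjusted p = 0.00435). Their summed level was 9121 to 10160 CPM in controls and 7214 to 8425 CPM at 14 d, far above that of the receptors. Of the 8 cytokine receptor partners, 3 were called lower and none higher at 3 d. At 14 d Il2rg, the common gamma chain that pairs with Il2rb, fell by 1.18 (adjusted p = 0.000903). Il18r1, which pairs with Il18rap, fell by 1.65 (adjusted p = 0.0349) at 14 d, and the other 6 partners did not pass the test. On the side that feeds these receptors, Il15 fell by 1.64 (adjusted p = 0.00047) and Il18 by 1.36 (adjusted p = 4.67e-05) at 14 d, while Il12a and Il12b were not called. At 3 d the list of ligands and target-side receptors (8 genes tested) did not run one way. It had 3 genes called higher and 3 lower, where 36.7% and 14.8% of all genes tested were.

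In alveolar macrophages the 35 genes formed a different picture, dominated by Cd2. Cd2 was 386, 364, 396 and 384 CPM in control macrophages (383 ± 13.6, SD, n = 4), above every monocyte sample. It was 407, 326 and 410.3 CPM at 3 d, within the control range or close to it, and 84.3, 107.7 and 79.8 CPM at 14 d, below all earlier samples (log2 fold change -2.08, SE 0.15). Per kilobase of exon it was 219.8 CPM in control macrophages, where the next genes, Il12rb2 and Ccl5, were at 5.83 and 4.69 CPM per kb. Without Cd2 the other 34 genes summed to 61.1 to 112 CPM in control, 109 to 157 CPM at 3 d and 69 to 117 CPM at 14 d.

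The NK receptors and granule genes that were abundant in control monocytes were low in control macrophages. The 10 NK receptors summed to 4.18 to 6.16 CPM in control macrophages, against 205 to 555 CPM in control monocytes. Klrb1c was 0.479, 0.304, 0.328 and 0.663 CPM, and Ncr1 0.274, 0.228, 0.459 and 0.133 CPM, the latter at or under the floor of 3 counts in part of the samples. Gzma was 2.39, 1.37, 3.6 and 3.25 CPM. In a fit over all 22 samples, 30 of the 35 genes were called lower and Cd2 higher in control macrophages than in control monocytes, where 19.7% of 26692 genes were called lower, 24.5% higher and 44.2% either way. The log2 difference was -8.21 (SE 1.00) for Ncr1, -7.82 (SE 1.01) for Gzma and 2.88 (SE 0.40) for Cd2. Il12rb2 (-0.02), Cd3e (-0.53), Cd3g (-0.65) and Cd247 (-1.15) were not called. The tables of the cell types were deposited separately, and other scalings shifted these differences by -0.31 to 0.41.

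The 30 genes that passed the filter on low counts in macrophages did not include Klrb1c, Klra7, Klra8, Fasl and Xcl1. At 3 d 3 of the 30 were called higher and 0 lower, where 1.05% of the 20944 genes tested were called higher, 0.229% lower and 1.28% either way. Without overlap, 10 lay above the controls, where 6.86% of all genes lay above and 7.13% below. Il18rap was 2.74, 4.33, 3.34 and 3.45 CPM in control, and 18, 8.99 and 18 CPM at 3 d, with no overlap (log2 fold change 2.11, SE 0.28). Cd7 was 1.09, 0.835, 2.88 and 0.73 CPM in control and 12.3, 6.74 and 12.2 CPM at 3 d (2.89, SE 0.45), and it returned to 3.29, 0.997 and 2.35 CPM at 14 d. Stat4 was 2.05, 1.67, 2.29 and 0.73 CPM in control and 6.73, 5.04 and 16.4 CPM at 3 d (2.46, SE 0.54). Both Stat4 and Cd7 had fallen in monocytes at this time. The Stat4 call was lost when any 1 of the 4 controls, 3 d replicate 1, 3 d replicate 3 or 14 d replicate 1 was left out (log2 fold change 1.82 to 2.67).

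Gzmb was higher at 3 d by level, at 4.3, 7.44 and 20.3 CPM against 1.29 to 2.53 CPM in control, and Gzma was 5.51, 4.73 and 8.75 CPM against 1.37 to 3.6 CPM. Neither passed the test, although neither overlapped the controls. At 14 d Gzma was 0.572, 0.499 and 1.34 CPM, below the controls (log2 fold change -1.76, SE 0.49). Gzmb was 4.29, 2.37 and 0.168 CPM, which spans the control range.

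**Figure D5:**
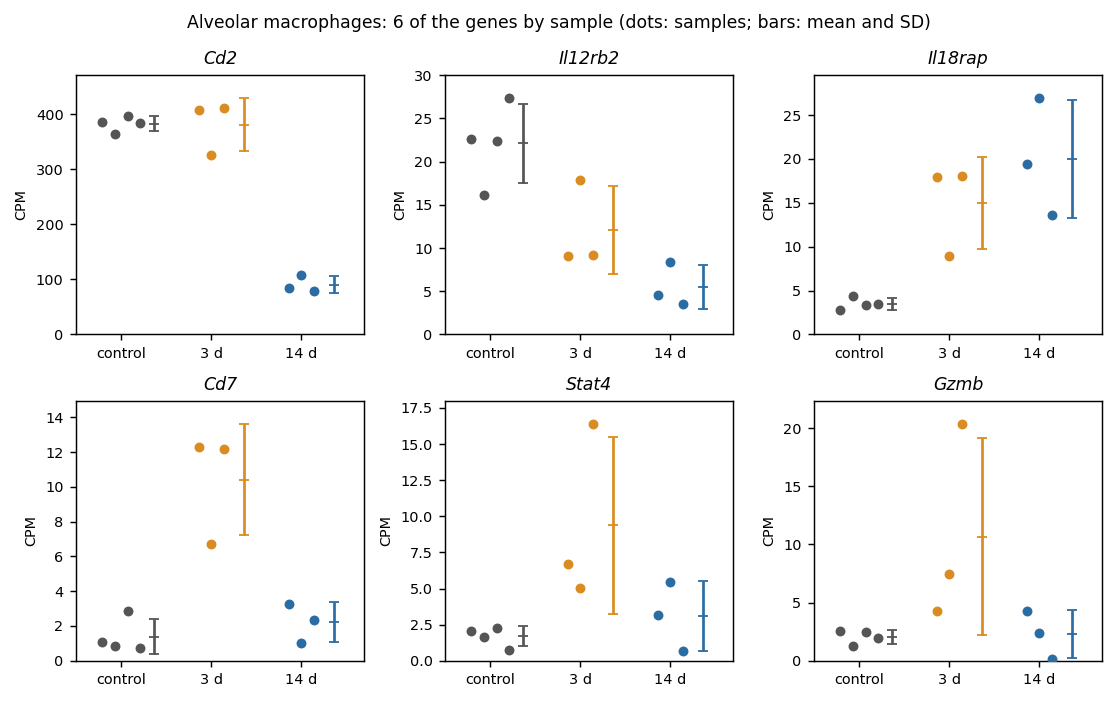
CPM of Cd2, Il12rb2, Il18rap, Cd7, Stat4 and Gzmb in each macrophage sample (dots), with the mean and SD beside each group (bars). Cd2 and Il12rb2 are lowest at 14 d, Il18rap is above all 4 controls at both times, and Cd7, Stat4 and Gzmb are highest at 3 d.

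At 14 d, 10 of the 30 genes were called higher and 4 lower, where 39.3% and 23.4% of all genes tested were, or 62.6% in all. Both shares of the 30 genes lay below that background. The groups lay apart for 6 genes upward and 4 downward, against 40.1% and 30.9% of all genes. Eomes was 0.41, 0.152, 0.786 and 0.531 CPM in control and 4.72, 2 and 1.34 CPM at 14 d (2.48, SE 0.63). Il18rap was 19.5, 26.9 and 13.6 CPM (2.53, SE 0.29). Il12rb2 was 22.6, 16.2, 22.3 and 27.3 CPM in control, 9.02, 17.9 and 9.17 CPM at 3 d and 4.58, 8.35 and 3.53 CPM at 14 d (-1.99, SE 0.32), a fall that the lower depth at 14 d does not bring to the floor. The other genes called higher were Klrk1, Klre1, Klra4, Klra9, Klrg1, Tbx21, Skap1 and Cd3e, all under 9 CPM in every sample, and the other gene called lower was Cd247 (-0.72, SE 0.29). Other scalings raised the changes by 0.16 to 0.54 and gave 11 to 17 genes higher and 2 or 3 lower.

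From 3 d to 14 d, 2 of the 30 genes were called higher (Eomes and Txk) and 8 lower (Gzma, Gzmb, Stat4, Il12rb2, Ccl5, Cd247, Cd2 and Cd7), where 36.2% and 20.4% of all genes were, or 56.6% in all. Their median of -0.08 turned to between 0.02 and 0.36 under the 4 other scalings, so no direction is given for the group of genes.

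Co-movement within groups was described in macrophages in the same way. Control replicate 3 was highest for 21 of the 30 genes (70%, against 21.3% of other genes), including Cd3e at 6.22 CPM against 1.23 to 1.79 CPM in the other controls, and Il2rb at 8.25 CPM against 1.37 to 2.85 CPM. Cd3e, Cd3d and Cd3g summed to 4.03, 7.29, 17 and 4.11 CPM in the 4 controls. The 29 further T cell genes followed, at 129.4, 135, 198 and 125.6 CPM. The 23 further NK genes (310.3, 277.8, 295 and 274.7 CPM) and the B cell genes (541.5, 832, 508 and 184 CPM) did not. At 14 d replicate 3 was lowest for 21 genes, but it was lowest for 47.3% of other genes too and was the shallowest library. Subtraction of the other genes' median deviation lowered the SD of 23 of the 30 genes (76.7%, against 14.5% of other genes), and the median SD went from 0.748 to 0.644. As in monocytes, nothing is read from the contrast with other genes. Cd2, Gzma, Prf1, Ctsw, Klra4, Tbx21 and Il18rap were not lowered.

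Other lymphocyte lists in macrophages were set beside these levels. At 3 d, 1 of 12 further NK genes rose (Serpinb6b by 2.40, edgeR adjusted p = 0.00718) and 2 of 17 B cell genes, and no gene of either list fell. The 17 B cell genes summed to 783 to 1835 CPM at 3 d against 184 to 832 CPM in control and 272 to 486 CPM at 14 d. At 14 d 4 NK genes rose and 2 fell, and 8 of 28 further T cell genes rose and 1 fell, where 39.3% of all genes rose and 23.4% fell. Ubash3a was up by 3.33 (adjusted p = 1.77e-05) and Sh2d1b1, an NK adaptor, was down by 1.91 (adjusted p = 2.27e-05). The 7 genes of group 2 innate lymphoid cells summed to 4.71 to 14.1 CPM in control, 19.7 to 25.1 CPM at 3 d and 32.2 to 44.8 CPM at 14 d, and Il1rl1, the IL-33 receptor, rose by 2.66 (adjusted p = 0.00441) at 3 d and by 4.07 (adjusted p = 1.94e-06) at 14 d. Epithelial genes summed to 246 to 356 CPM in control, 654 to 987.5 CPM at 3 d and 223 to 335 CPM at 14 d. The part of other cells in the macrophage levels was not tested.

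The change from control was compared between the cell types in the joint fit. At 3 d, 21 of the 35 genes changed more upward in macrophages than in monocytes and 0 more downward, where 3.52% of 26692 genes were called in that direction, 15.2% in the other and 18.7% in all. At 14 d the numbers were 30 and 0, where 16.9% of genes were called in that direction, 20% in the other and 36.9% in all. The median difference was 3.36 at 3 d and 4.49 at 14 d on the log2 scale, beside -0.63 and 0.48 over all genes. Klrk1 differed by 3.20 (SE 0.58) and 4.86 (SE 0.60), and Stat4 by 4.12 (SE 0.59) and 2.99 (SE 0.61). At 14 d Nkg7 (4.11, SE 1.63), Gzma (2.99, SE 1.74), Cd3d, Cd3g and Cd2 were not called, and Cd2, which was lower in both cell types, was the 1 gene with a difference below 0 (-0.58, SE 0.56). Other scalings moved the 14 d differences up by 0.39 to 0.77. Klrb1c, Klra7, Klra8, Fasl and Xcl1, which failed the filter in macrophages but passed it in the joint fit, are among the genes called at 14 d. Genes near the floor in macrophages could differ only upward, and the levels in control monocytes were among those that chose the list, so nothing is read from these counts.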

How the data were processed

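The authors deposited raw counts per gene for each cell type, with 55421 genes for monocytes and 31134 for alveolar macrophages. The submitters' processing notes name STAR (2.7.2c, 2.7.3a), featureCounts 1.6.3, DESeq2 (1.26.0, 1.28.1) and GRCm38, without giving their order. Library preparation used oligo(dT) selection with a kit not stated to mark strand, so reads of overlapping genes on opposite strands cannot be told apart.

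Samples were grouped by the labels. Genes passing filterByExpr were tested with edgeR 4.0.16 (quasi-likelihood, robust, TMM; R 4.3.3) within each cell type over its 3 groups, and in 1 joint fit of 22 samples on the 31116 shared genes for the comparison of cell types and of their changes. A call needed a Benjamini-Hochberg adjusted p below 0.05 over all genes tested and a fold change above 1.5, the study's thresholds. Log2 values used a prior count of 2. The scripts were tested on simulated data with known changes.

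The 35 genes and the other lists were chosen with earlier results of these data known. All 35 genes are named, and up to 2 called genes per list, comparison and direction, by size of change. DESeq2 1.42.0, other scalings and filters, a replicate block and leaving out each sample were the alternatives. Replicates differed from each other by more than sampling noise. Same-numbered control and 14 d monocytes deviated together (r from 0.089 to 0.521, median 0.255), but not all above 0.1. Differently numbered ones had a median r of -0.126. In the other comparisons same-numbered r was -0.17 to 0.229, so the replicate numbers were not taken as pairs. Coordinates are from GENCODE M21. Floors cover counting error only. Some results of the other lists are not reported here.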

Additional observations from a re-analysis of the deposited data

Results flagged for a closer look

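A sample was singled out where, in a group of 4, the highest or the lowest value lay further from its neighbour than the 95% limit of Dixon's test. For normally distributed values chance exceeds that limit in about 1 in 20 groups, and the CPM values used here need not be so distributed. Of 135 groups of 4 samples, 21 were, and 17 of these were 3 d monocyte replicate 2 at the high end. Among receptors and signalling genes in that sample, Klrb1c was 11.1 CPM (next highest 2.93), Ncr1 19.9 (3.65), Klrd1 20.8 (2.9), Klra7 9.42 (1.87), Klra8 2.81 (0.586), Klra9 4.29 (1.12), Klrg1 12.7 (1.59), Il2rb 22.2 (4.58) and Lck 18.8 (5.75). Among granule genes, the chemokine and Tbx21, Prf1 was 38 CPM (next highest 5.28), Nkg7 79.5 (10.2), Gzma 153 (19.7), Gzmb 39.4 (5.66), Ctsw 15.5 (3.37), Fasl 6.38 (1.263), Ccl5 107 (14.6) and Tbx21 9.15 (1.58). The 17 values belong to 1 library and are not independent of each other.

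In 14 d monocytes, Stat4 was low in replicate 3 at 1.65 CPM (next lowest 3.2) and Cd247 high in replicate 2 at 1.97 CPM (next highest 0.88). In control macrophages, replicate 3 was high for Cd3e at 6.22 CPM (next highest 1.79) and for Cd7 at 2.88 CPM (next highest 1.09).

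The change from control differed between the cell types, by the interaction term of the joint fit in edgeR, for 21 of the 35 genes at 3 d and 30 at 14 d, all of them more upward in macrophages. These counts rest on the levels that chose the list, and Klrb1c, Klra7, Klra8, Fasl and Xcl1 failed the filter on low counts in macrophages, so nothing is read from them.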

How the results depend on the processing

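Over the settings tried, the values of the 35 genes stayed on their side of the threshold in 7120 cases, lost a call in 336 and gained 1 in 172, and no called value changed sign. The log2 fold change of Epcam, an epithelial marker, in macrophages at 3 d (0.06) was not called and ran from -0.78 to 0.37 when 1 sample was left out, the lowest without 3 d replicate 2. Causes were not tested, except that the stricter filter tests fewer genes. In monocytes at 3 d (31 of the 35 genes called), a mean log2 CPM above 1 left 20 and control replicates 1 and 2 alone 14. For the further NK, T and B cell genes (40 called), library size scaling and upper quartile scaling gave 25 each, TMM from genes above a log2 CPM of 5 gave 24, the stricter filter 11 and control replicates 1 and 2 alone 23. At 14 d, control replicates 1 and 2 alone gave 18 of the 35 genes (32) and 15 of the further genes (38), and the stricter filter 25 of the latter. From 3 d to 14 d (8), DESeq2 gave 18, library size and upper quartile scaling 14, RLE 13 and TMM from high genes 15, and the stricter filter gave 9 further genes (26). In macrophages at 3 d (3), DESeq2 gave 6. For the further genes there (4), DESeq2 gave 15, upper quartile and RLE 7, a dispersion that was not robust 10 and the replicate block 2. At 14 d (14 and 16) the stricter filter gave 8 and 9, and from 3 d to 14 d (10) 5. For the differences between the cell types it gave 15 further genes at 3 d (25) and 19 of the 35 genes at 14 d (30), and 19 of the 35 in controls (31), while DESeq2 and TMM from high genes gave 40 further genes at 14 d (26). The mean summed level in control macrophages was 420.1 CPM with library size scaling and 405.1 with TMM from high genes, and at 14 d 235 and 245.

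Leaving out 1 sample at a time gave 27 to 32 of the 35 genes in monocytes at 3 d, 25 to 32 at 14 d and 6 to 18 from 3 d to 14 d. In macrophages it gave 2 to 5 at 3 d, 9 to 16 at 14 d and 7 to 13 from 3 d to 14 d. The differences between cell types gave 15 to 27 at 3 d, 22 to 32 at 14 d and 29 to 33 in controls. The further genes gave 29 to 41, 22 to 37 and 21 to 28 in monocytes, 1 to 14, 14 to 16 and 16 to 29 in macrophages, and 17 to 32, 20 to 29 and 32 to 38 between cell types. In macrophages, 9 genes were called at 14 d without control replicate 1, and 5 at 3 d without 3 d replicate 2.

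With the replicate block, 30, 30 and 9 of the 35 genes were called in the 3 monocyte comparisons, 2, 10 and 10 in macrophages, and 24, 29 and 31 between cell types. Control monocyte replicates 1, 3 and 4 correlated best with the 14 d sample of the same number, and replicate 2 with 14 d replicate 1 (r = 0.29, against 0.184). The median r between these groups was 0.255 for the same number and -0.126 for different numbers. Genes detected also fell from replicate 1 to replicate 4 in both groups (30865 to 24775 in control, 32492 to 24829 at 14 d). The labels do not say what the numbers stand for, and this was not tested.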
